A study of Mus musculus with 12 samples.

Results

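The cytosolic ribosomal protein genes are the genes for the proteins of the large (60S) and small (40S) subunit of the ribosome that translates nuclear mRNAs. They were taken as the protein-coding rows of the count table whose symbol follows the Rpl and Rps naming of these proteins, with Rplp0, Rplp1, Rplp2 and Rpsa added, which gave 84 of 55487 genes, 52 of the large and 32 of the small subunit. Of these, 82 passed the filter on low counts, 50 large and 32 small, and were tested among 16908 genes. The rule used no measured value.

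RNA was sequenced from microglia, the macrophages of the brain, that were sorted from YARG mice at postnatal day 13. YARG mice carry a YFP reporter at the *Arg1* locus, so that YFP marks cells in which the locus for arginase-1 is active. All 12 libraries came from YARG mice and from cells that were CX3CR1+ and CD206-, and they fall into ARG1-YFP-positive (ARG1+) and ARG1-YFP-negative (ARG1-) microglia of each sex, with 3 libraries in each of the 4 groups. Tissue ventral to the corpus callosum, labelled as basal forebrain and striatum, was pooled from several mice of 1 sex for each library, so that a library is a pool and not 1 animal, and the comparison asks how the transcriptome of ARG1+ microglia differs from that of neighboring ARG1- microglia.

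A ribosome holds close to 1 copy of nearly all of its proteins, and their mRNAs are among the most abundant in most cells. Many of these mRNAs begin with a cytidine followed by a run of pyrimidines, the terminal oligopyrimidine (TOP) motif, through which the mTOR pathway and the RNA-binding protein LARP1 control their translation and stability. In microglia, as in other macrophages, ribosome content is known to vary with growth and activation.

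The start of each gene is shown because the TOP motif is what these mRNAs are best known to share. RefSeq start sites on GRCm38.p6 were found by symbol for 64 of the 84 genes. A C followed by at least 6 bases that are C or T lay on the coding strand within 10 bases before to 30 bases after a start site in 33 of them (51.6%), against 19.6% of 27025 symbols in the same table, and a C followed by at least 4 such bases stood exactly at a start site in 13 (20.3%) against 3.01%. In windows of 30 bases, from 5 before the start site onward, the longest run of C and T that begins with C was sought. It is in capitals where it has at least 5 bases. Windows are printed below for some of the genes named in the results, all of them with such a run. They are *Rps6* (chr4:86857343-86857372, minus strand), *Rpl13a* (chr7:45128721-45128750, minus), *Rps27* (chr3:90213624-90213653, minus), its paralog *Rps27l* (chr9:66946081-66946110, plus), *Rpl36a* (chrX:134585649-134585678, plus), its paralog *Rpl36al* (chr12:69184043-69184072, minus), *Rpl39* (chrX:37085198-37085227, minus), *Rplp0* (chr5:115559462-115559491, plus) and *Rpl10a* (chr17:28328466-28328495, plus).
Rps6: cgggCCTCTTTTTCgtgacgcctcccaggc
Rpl13a: gacaagaCCTCCTCCTTTCCCaggcggctg
Rps27: tcgCTCCTTTCCggcggtgacgacctccct
Rps27l: ccgccgCCTCTatcccggaagttgctgagg
Rpl36a: gcaccgcctataaaCTTCCgttgcggctct
Rpl36al: gctcaggttcagttccgaCTTCCgctctgt
Rpl39: gcctctagcgaCTTCTTCTaatcgcgttct
Rplp0: ttcgaggaccgcctggttCTCCTataaaag
Rpl10a: cccagcggccgcaaactgcagcgCCTCTCC
The longest runs shown are the 14 bases of *Rpl13a* and the 10 bases of *Rps6*. In windows not printed, the longest run had 1 to 4 bases for *Rps3a1*, *Rpl4*, *Rpl9*, *Rpl7l1*, *Rpl22* and *Rpl39l*. It had 5 bases for *Rps3* and 8 for *Rpl22l1*, also not printed. A run marks letters in the reference and not a measured start of transcription, and the window of *Rps6* lies 45 bases and that of *Rpl39* 180 bases from the GENCODE start of the gene.

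Total counts lay between 28356659 and 60625170 per library, and replicate libraries of a group differed by more than sampling noise, so each was counted once. *Arg1* itself had 0 counts in all 6 ARG1- libraries and a count in 2 of 6 ARG1+ libraries, at most 1.48 CPM (counts scaled to the normalized library total). In these counts the transcript therefore did not check the sort. The paper reports no *Arg1* transcripts in its sequencing, but quantitative PCR of sorted cells in which *Arg1* was restricted to the YFP-positive population. The 8 microglial markers, *P2ry12* and *Tmem119* among them, summed to 54452 to 80109 CPM in ARG1- and 48714 to 60908 CPM in ARG1+ libraries, with 4 lower and 1 higher. None of the neutrophil and T cell markers passed the filter. Hemoglobin and other erythroid transcripts summed to 3.69 to 17.8 CPM in ARG1- and 0 to 3.39 CPM in ARG1+ libraries, with 1 of 5 lower. Oligodendrocyte and astrocyte markers summed to 171 to 258 against 259 to 377 CPM and to 129 to 151 against 176 to 223 CPM in ARG1+ and ARG1- libraries, with 1 of 6 genes lower in each list, *Cnp* and *Slc1a3*, which also held most of the sums. Endothelial markers summed to 44.0 to 83.3 against 28.0 to 56.7 CPM, nearly all of it *Pecam1*, with 0 of 3 called and *Cldn5* at 0 in all libraries. Border macrophage markers had 0 of 5 called, with *Mrc1*, the gene of CD206, at 147 ± 46.4 CPM in ARG1+ and 121 ± 16.1 CPM in ARG1- libraries, and of 3 monocyte markers 1 fell, *Plac8*, from 6.75 ± 1.80 to 1.32 ± 0.778 CPM. Of 5 neuronal markers 0 were called. Over all genes tested, 9.42% fell and 6.44% rose. The part of the other cell types in the results was not tested.

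Ribosomal protein transcripts were less abundant in ARG1+ microglia across nearly the whole set and in both subunits. Of the 82 genes tested, 80 fell and 0 rose at an adjusted p under 0.05 (edgeR's quasi-likelihood test), where 9.42% of all 16908 genes fell and 6.44% rose. The fitted change was below 0 for all 82, with a median log2 fold change of -1.18, against 0.06 for all genes tested, and DESeq2's Wald test also called 80 lower and 0 higher. All 6 ARG1+ libraries lay below all 6 ARG1- libraries for 76 of the 82 genes, against 6.56% of all genes, and the fitted level was over 2-fold lower for 62, against 6.35%. These genes made up 5.02% of all genes called lower, and 9 of the 100 and 58 of the 500 genes with the smallest p. In these bulk libraries, fewer cells with a high level and a lower level in each cell cannot be told apart, and every level is relative to its library.

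Summed over the 84 genes, the level was 6097 ± 555 CPM in ARG1- and 2805 ± 594 CPM in ARG1+ libraries (SD, n = 6 each), a 2.17-fold difference of the means. The ARG1- females had 5309, 6840 and 6602 CPM and the ARG1- males 5827, 6115 and 5891 CPM. The ARG1+ females had 2631, 2470 and 3507 CPM and the ARG1+ males 3533, 2048 and 2638 CPM. No ARG1+ library came near the lowest ARG1- library, which was female replicate 1, as the plot of summed levels shows. Libraries within a population tended to be high or low for many of the genes at once. ARG1+ male replicate 12 had the lowest level in its population for 72 of the 82 genes, and ARG1+ female replicate 15 and male replicate 11 had the highest for 46 and 32. As a share of all counts, the genes took 0.591% of ARG1- libraries (0.481 to 0.651%) and 0.290% of ARG1+ libraries (0.209 to 0.378%).

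**Figure D1:**
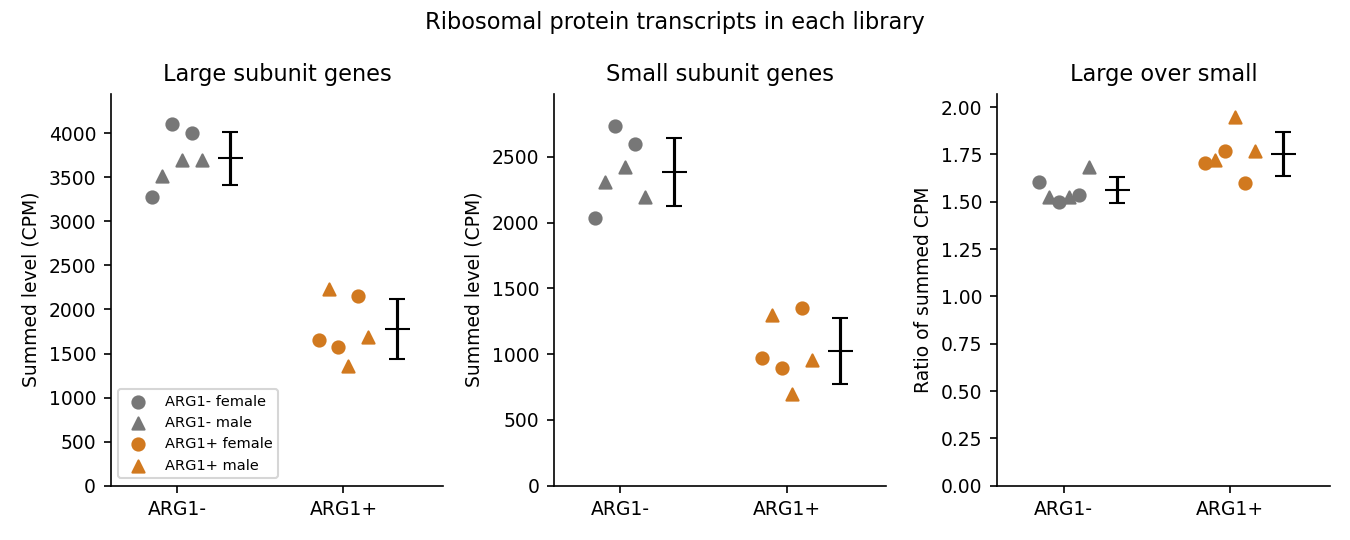
Summed CPM of the large and small subunit genes and the ratio of both sums (linear vertical axes from 0) in each of the 12 libraries, by population on the horizontal axis; circles are females, triangles males, and the bars give the mean and SD of 6 libraries. Both sums separate the populations, while the ratio overlaps between 1.6 and 1.69.

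Other properties of the libraries moved with the population. Mitochondrial transcripts took 0.499 ± 0.132% of counts in ARG1- and 0.266 ± 0.0852% in ARG1+ libraries, with overlap, and a list of 7 transcripts that stay in the nucleus or carry retained introns summed to 2498 ± 631 CPM in ARG1- and 5210 ± 1105 CPM in ARG1+ libraries without overlap (SD, n = 6 each). Where 6.44% of all genes rose and 9.42% fell, *Ccnl2*, *Rsrp1* and *Neat1* of that list rose and 0 fell. Most of the ARG1+ sum was *Rsrp1* (2591 CPM) and *Malat1* (1802 CPM), and *Malat1* overlapped between the populations and was not called. With a trend on transcript length and GC content removed, as described below, *Clk1* and *Clk4* rose too (log2 fold changes 0.91 and 0.98), where 4.52% of all genes rose. The part of these properties in the result was not tested.

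Both subunits took part. The large subunit genes summed to 3714 ± 305 CPM in ARG1- and 1778 ± 345 CPM in ARG1+ libraries, and the small subunit genes to 2383 ± 259 and 1027 ± 251 CPM (SD, n = 6). Of the 50 large subunit genes tested, 48 fell, with a median log2 fold change of -1.12 and a range from -1.81 to -0.20. All 32 small subunit genes fell, with a median of -1.25 and a range from -1.65 to -0.72. Of all genes tested, 9.42% fell. The large sum was 1.56 ± 0.0701 times the small sum in ARG1- libraries and 1.75 ± 0.116 times in ARG1+ libraries, with the lowest ARG1+ library at 1.6 and the highest ARG1- library at 1.69. No test was made on these sums, because a score over the genes is a description.

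Levels per kilobase of the principal transcript (CPM per kb) spread widely within the ribosome. Their median over the 82 genes was 54.5 in ARG1- and 26.0 in ARG1+ microglia. *Rpl4*, whose product lines the exit tunnel of the nascent protein, had the highest level per kb, 280 ± 42.2 in ARG1- and 137 ± 19.3 in ARG1+ microglia, and *Rpl13* was also among the highest (245 ± 11.2 and 120 ± 29.4, SD, n = 6). The lowest was *Rpl39l*, at 1.08 ± 0.579 and 0.546 ± 0.38, followed by *Rps15a* (3.52 ± 0.636 and 1.42 ± 0.566) and *Rps20* (11.5 ± 1.55 and 4.97 ± 1.48). The principal transcripts of *Rps15a* and *Rps20* are annotated at 5179 and 3706 bases, which lowers their level per kb. The order of the genes was much the same in both populations, with Spearman's rho of 0.97 between the levels per kb over the 82 genes, which share their libraries and transcript lengths. In CPM, *Rpl4* was the most abundant of the genes and had rank 300 among all genes in the ARG1- libraries.

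The stalk of the large subunit, which recruits the GTPases that drive elongation, is built of RPLP0, RPLP1 and RPLP2. All 3 genes fell, where 9.42% of all genes tested did. *Rplp0* had the smallest p of the set. It ranged from 242 to 279 CPM with a median of 261 in ARG1- libraries and from 113 to 158 CPM with a median of 134 in ARG1+ libraries. The populations did not overlap, and the log2 fold change was -0.94 (SE 0.10, adjusted p = 3.97e-04, edgeR). *Rplp1* fell from 47.3 ± 4.61 to 21.9 ± 6.47 CPM (log2 fold change -1.11, adjusted p = 0.00285) and *Rplp2* from 28.8 ± 4.64 to 13.3 ± 4.30 CPM (-1.11, adjusted p = 0.00507), again without overlap.

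RPL5 and RPL11 bind 5S ribosomal RNA and, when outside the ribosome, can bind the p53 regulator MDM2. *Rpl5* ranged from 50.3 to 80.4 CPM in ARG1- and from 27.0 to 43.8 CPM in ARG1+ libraries, with medians of 70.9 and 38.1. *Rpl11* ranged from 32.3 to 47.0 CPM and from 11 to 25.5 CPM, with medians of 39.4 and 18.3. Neither gene overlapped between the populations, and the log2 fold changes were -0.93 (SE 0.15, adjusted p = 0.00221, edgeR) and -1.13 (SE 0.20, adjusted p = 0.00317). For *Rpl5*, 26.7% of the exon bases are shared with other genes.

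The largest decreases were found for *Rpl39*, *Rpl36a*, *Rpl32*, *Rpl17* and *Rps14*. *Rpl39*, which encodes a very small protein at the exit tunnel, ranged from 8.07 to 16.4 CPM in ARG1- and from 1.68 to 6.98 CPM in ARG1+ libraries, with medians of 12.3 and 3.23. All ARG1+ libraries lay below all ARG1- libraries. The log2 fold change was -1.81 (SE 0.33, adjusted p = 0.00415, edgeR). *Rpl36a* fell by 1.76 on the log2 scale (SE 0.28, adjusted p = 0.00176), from 14.5 ± 3.6 to 4.26 ± 1.5 CPM. *Rpl32* ranged from 125 to 183 CPM in ARG1- libraries and from 28.6 to 66.7 CPM in ARG1+ libraries. The populations did not overlap, and its log2 fold change was -1.75 (SE 0.21, adjusted p = 5.78e-04), and it shares exon bases with *Cand2* on the other strand. *Rpl17*, a gene of the tunnel exit, fell from 41.0 ± 8.96 to 12.3 ± 3.96 CPM (log2 fold change -1.75). *Rps14*, a gene of the mRNA channel that is studied in the 5q- syndrome, fell from 173 ± 28.6 to 55.3 ± 17.3 CPM (-1.65, adjusted p = 5.78e-04).

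Among the other genes with the smallest p were *Rps3a1*, *Rps3*, *Rps6*, *Rpl7*, *Rpl13a*, *Rpl4* and *Rpl9*, and none of them overlapped between the populations. *Rps6*, whose product is phosphorylated by S6 kinases as a common readout of mTOR activity, had 85.0 to 131 CPM in ARG1- and 32.6 to 54.2 CPM in ARG1+ libraries, with medians of 105 and 39.9. Its log2 fold change was -1.31 (SE 0.15, adjusted p = 4.68e-04, edgeR). The log2 fold change was -1.42 for *Rps3a1* and -1.17 for *Rps3*, which lies at the entry of the mRNA channel. *Rpl13a*, known also as a part of the GAIT complex that silences inflammatory mRNAs in monocytes, ranged from 106 to 122 CPM and from 27.0 to 60.8 CPM (log2 fold change -1.44, SE 0.17), and 35.4% of its exon bases are shared with genes on the same strand, so its count is uncertain. The log2 fold changes of *Rpl7*, *Rpl9* and *Rpl4* were -1.32, -1.25 and -1.04. Their p-values were smaller than those of *Rpl39* and *Rpl36a*, which changed more but had lower counts and larger errors.

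Only *Rpl10a* and *Rpl39l* did not pass the test. *Rpl10a*, a protein of the L1 stalk that has been described in only a part of ribosomes, ranged from 34.6 to 52.8 CPM with a median of 48.7 in ARG1- libraries and from 30.1 to 55.5 CPM with a median of 40.9 in ARG1+ libraries. The populations overlapped fully, and the log2 fold change was -0.20 (SE 0.16, adjusted p = 0.436, edgeR), the smallest of the set. The other small decreases were those of *Rpl7l1* (-0.71, SE 0.10), *Rps24* (-0.72, SE 0.17), *Rpl34* (-0.73, SE 0.14) and *Rpl3* (-0.76, SE 0.11), all with an adjusted p under 0.05. *Rpl3*, the gene of a protein near the peptidyl transferase center, had 228 to 273 CPM in ARG1- and 131 to 182 CPM in ARG1+ libraries. *Rps24* lay between 36.4 and 62.7 CPM in ARG1- and between 25.6 and 40.7 CPM in ARG1+ libraries, and only the highest ARG1+ library, female replicate 15, reached into the ARG1- range. The plot of each gene's change shows *Rpl10a* apart from the rest.

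**Figure D2:**
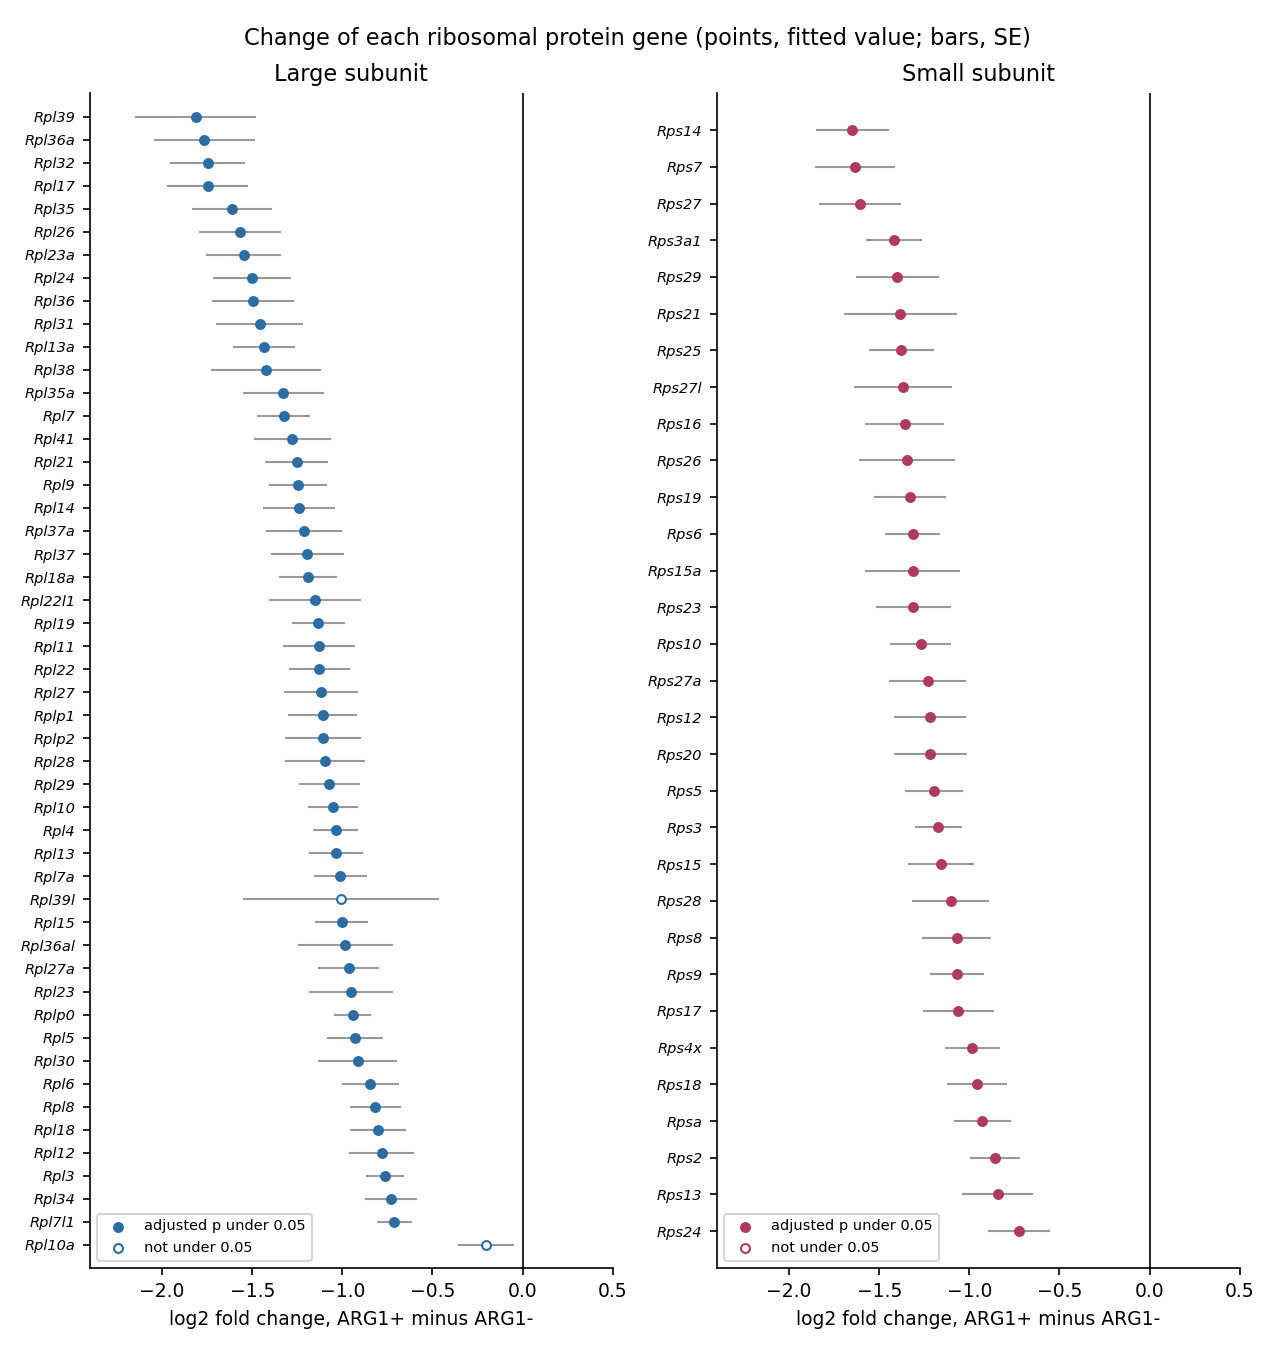
Fitted log2 fold change, ARG1+ minus ARG1- (horizontal axis), of the ribosomal protein genes tested, 1 of the small subunit left out, ordered by size within the large and the small subunit (vertical axis); bars give 1 SE and filled points have an adjusted p under 0.05. Every point lies below 0, from -1.81 for *Rpl39* to -0.20 for *Rpl10a*.

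The 4 X-linked genes tested, *Rpl10*, *Rpl36a*, *Rpl39* and *Rps4x*, all fell without overlap. Of all genes tested, 9.42% fell, and 6.56% had every ARG1+ library below every ARG1- library. *Rpl10* ranged from 125 to 167 CPM in ARG1- and from 52.8 to 86.7 CPM in ARG1+ libraries (log2 fold change -1.05, SE 0.14), and *Rps4x* from 85.6 to 116 CPM and from 36.3 to 64.3 CPM (-0.98, SE 0.15). All 10 genes of the list for the exit tunnel fell, with a median log2 fold change of -1.52. All 6 genes of the list for the mRNA channel fell, with a median of -1.18. All 13 genes known from Diamond-Blackfan anemia fell, with a median of -1.27. Since 80 of the 82 genes fell, these counts describe the lists and do not set them apart.

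Several ribosomal proteins have a paralog that takes their place in particular tissues or states. *Rpl10l*, the testis copy of *Rpl10*, had 0 counts in all 12 libraries, where 3 counts allow up to 0.102 CPM in the shallowest library. *Rpl3l*, the muscle copy of *Rpl3*, had 21 counts (0.358 CPM) in ARG1- female replicate 13 and 0 in the other 11 libraries. *Rps4l*, the copy of *Rps4x*, is annotated as a pseudogene and was not a member. These genes were not compared.

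In the other 5 pairs the log2 ratio of paralog to partner was compared within libraries by a two-sided exact permutation test over all 924 splits of 6 and 6 libraries, whose smallest p is 0.00216, with adjustment over the 5 pairs. The 95% intervals rest on the SE of the difference and not on the permutation test, so an interval and its p can differ. *Rpl36al* fell less than *Rpl36a*. It ranged from 15.5 to 23.9 CPM in ARG1- and from 5.15 to 16 CPM in ARG1+ libraries (medians 21 and 10.9), where *Rpl36a* ranged from 10.5 to 19.1 and from 2.61 to 6.14 CPM. *Rpl36al* went from 1.42 to 2.47 times *Rpl36a* in mean CPM, and the log2 ratio was higher by 0.73 in ARG1+ libraries (95% interval 0.39 to 1.07, exact permutation p = 0.00216, adjusted p = 0.0108, n = 6 against 6). It was higher in all 6 ARG1+ libraries than in any ARG1- library, the only such pair. *Rpl36al* itself overlapped between the populations (log2 fold change -0.98, SE 0.26, adjusted p = 0.0243, edgeR), and 24.5% of its exon bases are shared with another gene.

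*Rpl7l1*, whose product acts in assembly of the large subunit, also fell less than *Rpl7*. *Rpl7l1* ranged from 168 to 187 CPM in ARG1- and from 87.7 to 129 CPM in ARG1+ libraries, and *Rpl7* from 115 to 169 and from 43.4 to 70.7 CPM. Neither gene overlapped between the populations. The log2 ratio was higher by 0.62 in ARG1+ libraries (95% interval 0.31 to 0.92, exact permutation p = 0.00649, adjusted p = 0.0162), and the ranges of the ratio overlapped.

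The ratio did not pass the test in the remaining pairs. *Rps27l*, a p53 target, ranged from 27.1 to 51.8 CPM in ARG1- and from 8.87 to 28.0 CPM in ARG1+ libraries, and its ratio to *Rps27* was higher by 0.24 in ARG1+ libraries (95% interval -0.02 to 0.50, exact permutation p = 0.0346, adjusted p = 0.0577). *Rpl39l* was near the limit of detection, at 0.870 ± 0.466 and 0.440 ± 0.306 CPM, and its log2 ratio to *Rpl39* differed by 0.95 (95% interval -0.53 to 2.43, adjusted exact permutation p = 0.227). *Rpl22l1* fell from 12.4 ± 3.72 to 5.67 ± 1.42 CPM and *Rpl22* from 28.4 ± 5.12 to 12.9 ± 2.16 CPM. Their log2 ratio differed by 0.03, with an interval from -0.55 to 0.61 (adjusted exact permutation p = 0.911). In the pairs *Rpl36al* and *Rpl7l1* the paralog has the longer principal transcript, 1276 against 483 bases and 2606 against 1163 bases. The same holds for *Rps27l*, 499 against 345 bases, and *Rpl39l*, 805 against 612 bases. In the pair *Rpl22l1* the paralog has the shorter, 552 against 2051 bases. A trend on transcript length and GC content was also removed, as described below for the whole set. The log2 fold changes were then -0.57 for *Rpl36al* and -1.03 for *Rpl36a*, and -0.68 for *Rpl7l1* and -0.77 for *Rpl7*. They were -0.54 for *Rps27l* and -1.03 for *Rps27*, and -0.13 for *Rpl39l* and -1.11 for *Rpl39*. For *Rpl22l1* and *Rpl22* they were -0.25 and -0.97.

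**Figure D3:**
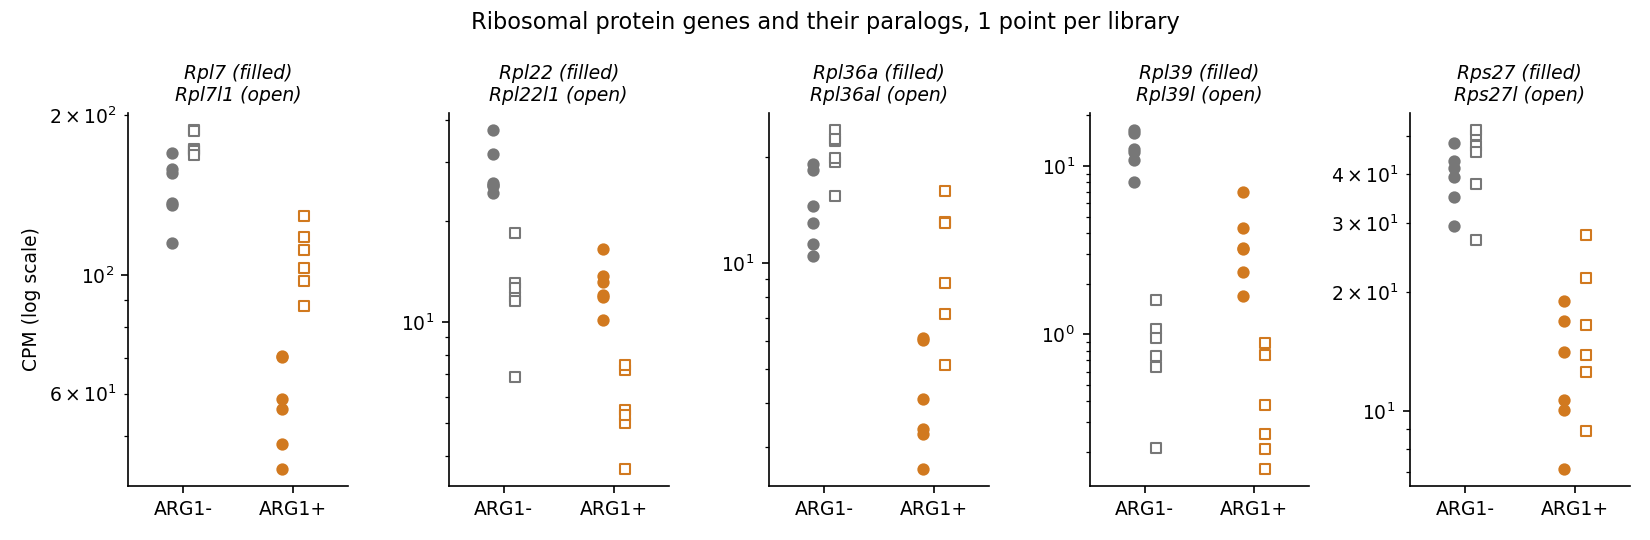
CPM (log axis, a separate scale for each pair) of 5 ribosomal protein genes (filled) and their paralogs (open) in each of 6 ARG1- and 6 ARG1+ libraries. *Rpl36al* and *Rpl7l1* lie farther above their partners in ARG1+ than in ARG1- libraries. The ratio of *Rpl22l1* to *Rpl22* spread widely and did not pass the test.

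The comparison was repeated within each sex, in a fit of the 4 group means. In females 59 of the 82 genes fell and 0 rose, where 4.16% of all genes fell and 2.6% rose, with a median log2 fold change of -1.17. In males 57 fell and 0 rose, where 3.1% of all genes fell and 2.03% rose, with a median of -1.22. Each of these contrasts rests on 3 against 3 libraries. The difference between the effects in males and females passed the test for 0 of the 82 genes, as it did for 0% of all genes, and it reached an unadjusted p under 0.05 for 0 of them, against 9.32% of all genes. The smallest interaction p was that of *Rpl22*, with log2 fold changes of -0.93 in females and -1.32 in males (difference -0.39, adjusted p = 0.780, edgeR). *Rps12* had -0.99 and -1.45, and *Rpl7l1* had -0.81 and -0.61. Between males and females, 0 of the 82 genes passed the test in ARG1- microglia (0.0946% of all genes), and 1, *Rpl34*, had an unadjusted p under 0.05 (0.0423), where 10% of all genes did. In ARG1+ microglia 0 passed (0.0355% of all genes), and 0 had an unadjusted p under 0.05, where 3.12% of all genes did. DESeq2's Wald test called 0 of them in each of these comparisons too.

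The ribosomal protein genes have short transcripts, and among the other protein-coding genes the change followed transcript length except in the shortest class. Of 115 other genes with a principal transcript of up to 500 bases, 21.7% fell (median -0.38). All 11 ribosomal protein genes of that length fell (median -1.38). Of 282 other genes with a principal transcript over 500 and up to 750 bases, 40.1% fell, with a median log2 fold change of -0.68, where 17 of the 18 ribosomal protein genes of that length fell, with a median of -1.23. Between 1000 and 1500 bases 28.5% of 1223 other genes fell (median -0.41) and all 18 ribosomal protein genes did (median -1.04). Over 4000 bases only 1.88% of 3837 other genes fell (median 0.33). In each of the 7 length classes the median of the ribosomal protein genes lay below that of the other genes. The class over 4000 bases held only 1 of them, *Rps15a*, and the class over 2000 and up to 4000 bases held 5.

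The trend of each library on principal transcript length and GC content was therefore removed in a further fit, chosen after seeing the data. There 64 of the 82 genes fell and 1 rose, with a median log2 fold change of -0.67, where 6.52% of all genes fell and 4.52% rose. The gene that rose was *Rpl10a* (0.49, SE 0.12, adjusted p = 0.0262, edgeR), which was below 0 in the fit without the trend. The large subunit had 41 lower genes and a median of -0.65, and the small subunit had 23 and -0.69. Genes that no longer passed the test included *Rpl34*, *Rpl22l1*, *Rpl36al*, *Rps12*, *Rps24* and *Rps27l*. With the length of all annotated exons in place of the principal transcript, which is longer where isoforms retain introns, 80 of the 82 fell, with a median of -1.05.

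**Figure D4:**
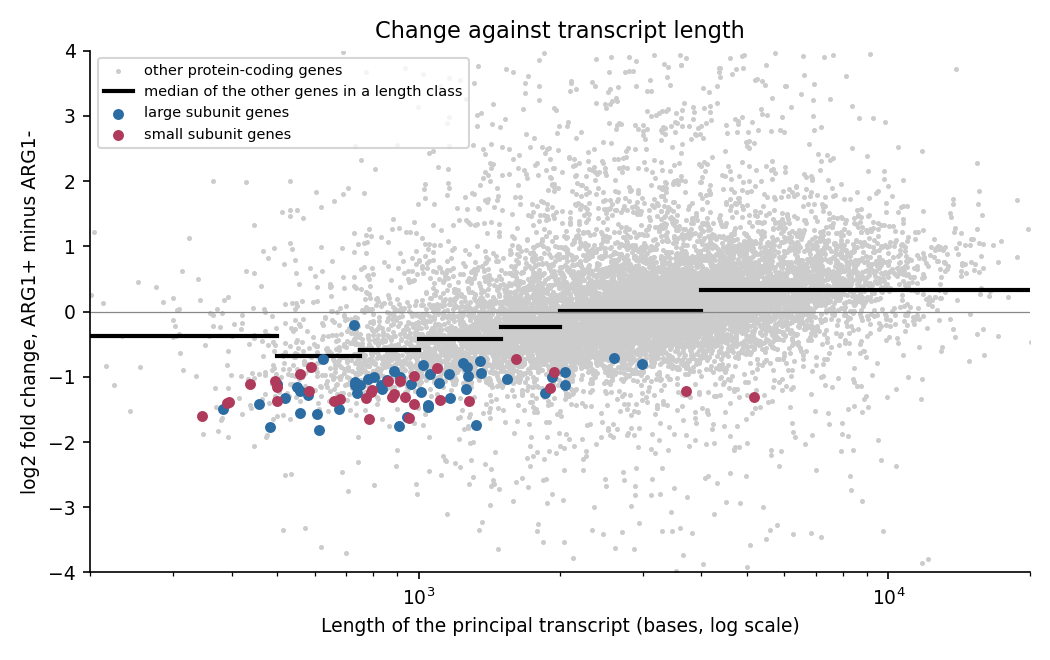
Fitted log2 fold change, ARG1+ minus ARG1- (vertical axis), against the length of the principal transcript in bases (log axis; genes outside the axes are not drawn) for ribosomal protein genes of the large (blue) and small subunit (red) and other protein-coding genes (grey); black bars are medians of the other genes in a length class, from -0.68 between 500 and 750 bases to 0.33 over 4000 bases. The bar of the class up to 500 bases lies at -0.38. Nearly all ribosomal protein genes lie below the bar of their class.

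Within the set, longer genes tended to fall less. Across the 82 genes, which share their libraries, Pearson's r and Spearman's rho of the log2 fold change were 0.41 and 0.46 with the log2 length of all annotated exons, 0.30 and 0.36 with that of the principal transcript, 0.20 and 0.23 with log2 mean CPM and 0.04 and 0.04 with the level per kb. Genes with no annotated retained-intron transcript had a median of -1.14 (18 genes). Those with 1 to 2 such transcripts had a median of -1.22 (35 genes), those with 3 to 4 of -1.15 (19 genes) and those with 5 to 7 of -1.0 (10 genes). Genes with the pyrimidine run near the start had a median of -1.24 (33 genes) and those without it a median of -1.10 (29 genes).

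Reads of these genes can also fall on their many processed pseudogenes and on genes within their introns. Of 300 rows named as pseudogenes of these genes, 213 had a count and 34 were tested. Among the 34, 5 fell and 0 rose (median log2 fold change -1.21), where 9.42% of all genes fell and 6.44% rose. The share of the pseudogene rows in all counts was 0.00439% in ARG1- and 0.00245% in ARG1+ libraries. Pseudogenes held 29.0% of the reads of *Rps13* and its named pseudogenes and 14.4% for *Rps15a*, so these counts are uncertain. Another gene shares exon bases with 39 of the genes tested, over 20% of them for 12, most for *Rpl35* (66.2%) and *Rpl23a* (62.3%), and how the authors' counting treated strand is not given in the sources used here.

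Other genes of the translation system were mixed. *Fau*, whose product is a small subunit protein made as a fusion to a ubiquitin-like protein, fell from 55.5 ± 5.22 to 21.1 ± 6.63 CPM (log2 fold change -1.40), and *Rack1*, which encodes a scaffold on the small subunit, from 170 ± 20.7 to 95.4 ± 14.5 CPM (-0.83). Of 16 other mRNAs known for a TOP motif, 12 fell and 0 rose, with a median of -0.82, where 9.42% of all genes fell and 6.44% rose. *Eef1a1*, the elongation factor that delivers aminoacyl-tRNA, fell from 1024 ± 144 to 460 ± 48.9 CPM (log2 fold change -1.15, SE 0.11), and *Eif3h*, a subunit of initiation factor eIF3, from 83.2 ± 9.77 to 37.4 ± 4.42 CPM (-1.15, SE 0.12). Neither overlapped between the populations.

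Of 78 genes for proteins of the mitochondrial ribosome, which translates the mitochondrial genome with proteins of its own, 44 fell and 0 rose, with a median of -0.59. Over all genes tested, 9.42% fell and 6.44% rose. *Mrps34* fell from 58.3 ± 2.32 to 33.3 ± 5.25 CPM and *Mrpl22*, at 22.6 ± 2.94 CPM in ARG1- microglia, had a log2 fold change of -1.18. Of 65 translation factors 25 fell and 3 rose, with a median of -0.32, and *Eif4g1*, the scaffold of the cap-binding complex, rose from 79.3 ± 24.9 to 134 ± 28.6 CPM. The list of translation factors shares genes with other lists, so these are counted more than once. They include *Eef1a1* and *Eif3h* of the TOP mRNAs, *Eif6* of the assembly factors and *Eif4e* of the TOP control genes. With the trend on principal transcript length removed, 10 of 16 TOP mRNAs fell and 1, *Eif4a2*, rose, 17 of 78 mitochondrial ribosomal proteins fell and 0 rose, and 20 of 65 translation factors fell and 1 rose, again *Eif4a2*, where 6.52% of all genes fell and 4.52% rose. *Mrpl22* and *Eif4g1* did not pass that test (log2 fold changes -0.50 and 0.33).

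Genes that make ribosomes were called in both directions, where 9.42% of all genes fell and 6.44% rose. Of 20 assembly factors of the small subunit 1 fell, *Nop58*, a core protein of box C/D particles (33.7 ± 5.25 to 22.1 ± 2.70 CPM). Of 20 assembly factors of the large subunit 4 fell and 1 rose, with *Eif6*, which keeps the subunits apart, falling from 105 ± 6.39 to 61.7 ± 9.59 CPM (log2 fold change -0.76), *Pes1* falling by 0.74 and the ATPase gene *Nvl* rising by 0.62 on the log2 scale. Of 12 genes of RNA polymerase I transcription, which makes ribosomal RNA, 3 fell and 1 rose. They include *Polr1d* (30.6 ± 3.25 to 18.3 ± 4.01 CPM), *Ubtf* (105 ± 16.5 to 73.7 ± 9.0 CPM) and *Polr1a*, which encodes the largest subunit and rose from 25.6 ± 13.8 to 39.2 ± 5.21 CPM. With the trend on principal transcript length removed, *Nop58*, *Nvl*, *Polr1d* and *Polr1a* lost their calls (log2 fold changes -0.20, 0.14, -0.31 and 0.21), while *Eif6*, *Pes1* and *Ubtf* were still lower. There 1 of the 20 small subunit assembly factors fell and 1, *Nop56*, rose, 5 of the 20 for the large subunit fell and 0 rose, and 1 of the 12 RNA polymerase I genes fell and 0 rose, where 6.52% of all genes fell and 4.52% rose.

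Of 14 genes that control TOP mRNAs, 1 fell and 2 rose, where 9.42% of all genes fell and 6.44% rose. *Larp1*, which binds the TOP motif, rose from 44.3 ± 8.44 to 73.9 ± 12.7 CPM (log2 fold change 0.72, SE 0.15, adjusted p = 0.00736, edgeR), with all 6 ARG1+ libraries above all ARG1- libraries. *Eif4ebp2*, an inhibitor of the cap-binding protein, rose from 10.9 ± 4.18 to 23.6 ± 5.64 CPM (1.11, SE 0.33, adjusted p = 0.0413), and *Eif4e*, the cap-binding protein itself, fell from 116 ± 19.4 to 76.7 ± 8.08 CPM (-0.59, SE 0.13, adjusted p = 0.00798). With the trend on principal transcript length removed, 1 of the 14, *Eif4e*, fell and 0 rose, where 6.52% of all genes fell and 4.52% rose. The log2 fold changes there were 0.24 for *Larp1* (adjusted p = 0.313, edgeR) and 0.72 for *Eif4ebp2* (adjusted p = 0.200). Of 9 ribosome quality control and stress genes tested 1 rose, *Ltn1* (41.6 ± 6.38 to 59.6 ± 12.1 CPM). Of 12 cell cycle genes 3 fell, among them *Mcm5* and *Pcna*. Both counts stand beside the 9.42% of all genes that fell and the 6.44% that rose. *Ltn1* and *Pcna* did not pass the test with that trend removed.

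**Figure D5:**
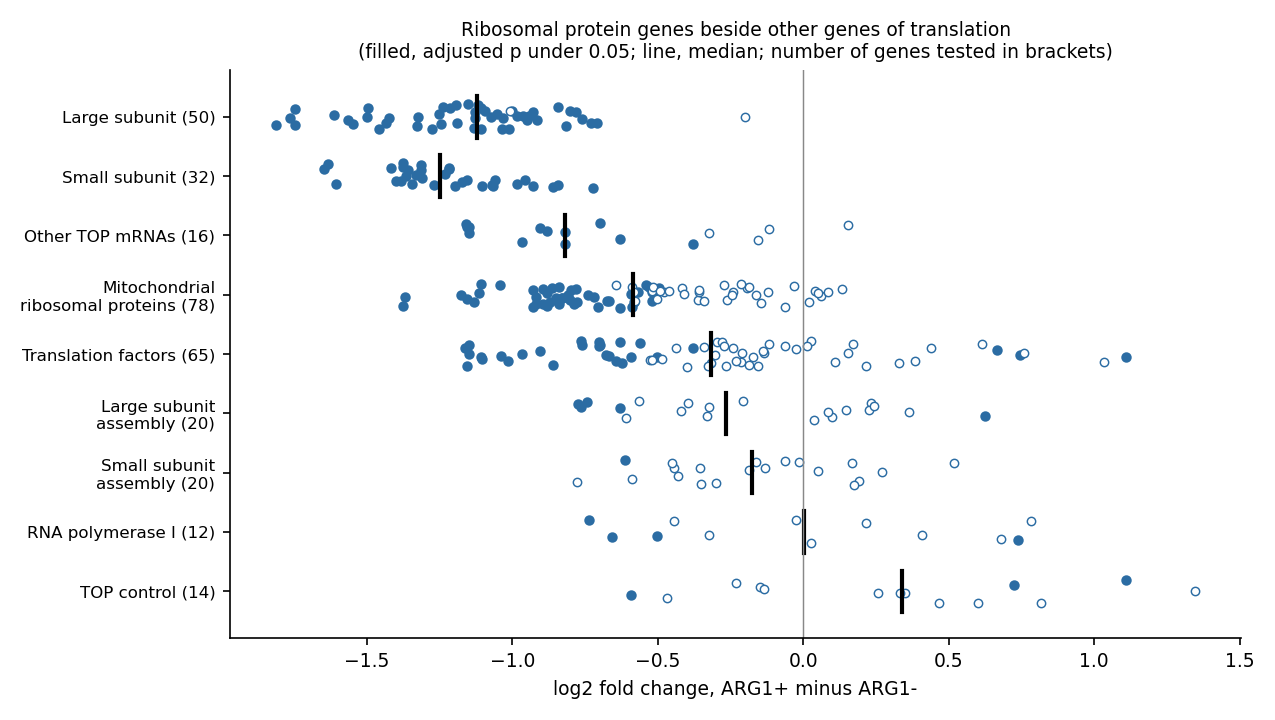
Fitted log2 fold change, ARG1+ minus ARG1- (horizontal axis), of each gene tested in 9 lists of the translation system (rows, with the number tested in brackets); filled points have an adjusted p under 0.05 and the black line is the median of the list. The lists share some genes. The median moves from -1.25 for the small subunit to 0.34 for the genes that control TOP mRNAs. With the trend on principal transcript length and GC content removed (not drawn), these medians were -0.69 and 0.05, against 0.03 for all genes tested.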

How the data were processed

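Gene counts of 12 libraries were analysed. Per the study's methods, complementary DNA came from a SMART-Seq kit, Nextera XT libraries were read as single ends, and the authors aligned reads to GRCm38 with STAR 2.6.1d and counted them with featureCounts 1.5.1 (versions per the submitters' processing notes). The deposited values are raw counts per gene, without normalization, in 1 column per library, and 0 columns were left unused. The annotation release behind the counts is not given in the sources used here. Symbols, gene types and lengths were taken from GENCODE M21 (GRCm38), which matched 55227 of 55487 identifiers. The other 260 held 0.0333% of counts.

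Counts were analysed with edgeR 4.0.16 (R 4.3.3). Low counts were removed by filterByExpr over the 4 groups, library totals were scaled by TMM, and glmQLFit with glmQLFTest gave the tests, with sex as a covariate and Benjamini–Hochberg adjustment over all genes tested at 0.05. The effect within each sex, the sex effects and the interaction came from a fit of the 4 group means. CPM are counts scaled to the TMM-normalized library total. Paralog log2 ratios used a prior count of 2. The reads carry no molecular identifiers, and p-values measure the spread between libraries, which are pools. The paper describes both populations as sorted from pooled tissue of litters of each sex, so an ARG1+ and an ARG1- library may share a pool. The labels do not pair them, and the tests treat all libraries as independent. Scripts were tested on simulated data with 200 genes changed by 1 or 1.5 on the log2 scale. There edgeR called 65 of the changed genes and 5 unchanged genes, and 20 of the 100 changed by 1. DESeq2's Wald test called 98 of the changed genes and 52 unchanged genes. The simulated spread was estimated with sex but without ARG1 status, so it includes real differences between the populations. These counts therefore do not measure how often a change would be found in the real libraries.

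The genes and lists were chosen with earlier results of these data known. Genes named are the 12 with the smallest p, the 5 largest and 5 smallest changes, the paralog pairs, the stalk, 5S and X-linked genes, the 3 highest and lowest per kb, the 3 with the smallest interaction p and, in other lists, the 2 with the smallest p in each direction. *Rpl35*, *Rpl23a*, *Rps13*, *Neat1*, *Malat1*, *Clk1*, *Clk4*, *Plac8*, *Nop56* and *Eif4a2* were named after their values were seen. Some results covered by these rules are not reported here. Alternatives were DESeq2 size factors, upper-quartile factors, TMM without the ribosomal protein genes, other filters, ARG1 status alone, a term for the libraries that the labels number 13 to 16, DESeq2 1.42.0, removal of length and GC trends (mgcv 1.9.3), thinned counts, each sex alone and each library left out.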

Additional observations from a re-analysis of the deposited data

Results flagged for a closer look

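In 78 groups of 6 libraries (the genes and sums named above, in each population), 1 library stood apart from the other 5 in 3 groups, where chance gives about 3.9. *Rpl10a* had 34.6 CPM in ARG1- female replicate 1, below the other ARG1- libraries at 46.1 to 52.8 CPM. *Rps24* had 40.7 CPM in ARG1+ female replicate 15, above the other ARG1+ libraries at 25.6 to 29.1 CPM. *Rps3* had 337 CPM in ARG1- female replicate 2, above the other ARG1- libraries at 267 to 287 CPM.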

How the results depend on the processing

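The number of ribosomal protein genes called lower was 57 to 80 in 25 alternatives, with 57 and 59 in males and females alone. It was 78 to 80 when each library was left out in turn. The median log2 fold change lay between -1.28 and -0.67 in the 25 alternatives, and between -1.28 and -1.07 when each library was left out. The value of -0.67, with 64 genes called lower, came with the trend on principal transcript length and GC content removed. In that fit 1 gene was called higher, *Rpl10a* at 0.49, so its sign turned. *Rpl36al* lost its call without ARG1- female replicate 2, ARG1+ female replicate 8, ARG1+ male replicate 12 or ARG1+ male replicate 16, and *Rps24* without ARG1+ male replicate 12. The log2 ratio of *Rpl22l1* to *Rpl22* lay between -0.11 and 0.19 when each library was left out, and was -0.071 in males alone. That of *Rps27l* to *Rps27* lay between 0.14 and 0.29, and passed the test without ARG1- male replicate 6 or 14 (adjusted exact permutation p = 0.0325 and 0.0216). The cause was not tested. The libraries numbered 13 to 16 in the labels gave a 2.03-fold difference of the summed level (2 against 2 libraries) and the others 2.26-fold (4 against 4). No paired analysis was possible because the populations share no replicate numbers in the labels. Depth limits *Rpl39l*, *Rpl3l* and *Rpl10l*, which had at most 1.6 CPM in any library.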
